A study of Homo sapiens with 9 samples.

Results

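Genes for proteins that recognise and bind splice sites were followed in the Burkitt's lymphoma line Ramos. The cells had 48 h with HDL NPs (40 nM), with human HDL (40 nM) or with PBS. The arrays read RNA, so counts and levels given below for proteins are those of their RNA. Protein levels of these genes were not measured. HDL NPs are synthetic, cholesterol-poor particles that bind the HDL receptor SCARB1, human HDL is its cholesterol-rich natural ligand, and PBS was the vehicle. There were 3 arrays of each condition, 9 in all, and each array is described in the study's methods as a separate biological replicate of the same cell line. Genes were taken by symbol: the SR proteins (SRSF), the hnRNP proteins (HNRNP), the subunits of SF3a and SF3b, the small snRNP proteins (SNRP) and the U2AF subunits, with pseudogenes left out. The array held 108 probes for 60 such genes. A gene counted as measured when a probe of it reached a detection p under 0.05 on 3 arrays or more, and it was read from its brightest such probe. This left 56 of the 60 genes, out of 10307 genes measured in all: 11 of 12 SR proteins, 23 of 24 hnRNP proteins, 8 of 9 SF3a and SF3b subunits, 3 of 3 U2AF subunits, 7 of 8 Sm ring proteins and 4 of 4 small proteins of the U1 and U2 snRNPs. SF3A1 and SRSF12 were above background on 0 arrays, and HNRNPCL1 and SNRPE on 1 array at most. Just inside the limit stood HNRNPCL2, above background on 4 arrays, and HNRNPLL, on 7 arrays; the other 54 were above background on all 9.

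Pre-mRNA splicing removes introns in a large RNA and protein machine, the spliceosome, which assembles anew on each intron. The U1 snRNP binds the start of the intron, U2AF binds the sequence in front of its end, and the U2 snRNP, with SF3a and SF3b, settles on the branch point. Each of these snRNPs carries a ring of Sm proteins around its small nuclear RNA. SR proteins mostly bind exons and promote the use of nearby splice sites, while hnRNP proteins coat nascent RNA and often block them. Many genes for SR and hnRNP proteins also splice their own transcripts into forms that are degraded, which ties their RNA level to their protein level.

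The arrays were not alike. HDL NP replicate 1 stood apart from the other 8 arrays. Relative to the PBS mean, in log2 units, cytosolic ribosomal protein genes had a median of −0.46 on this array, complex I subunits −1.26 and housekeeping genes 0.48, whereas these medians lay between −0.13 and 0.06 on every other array. Mean intensity was 228 to 261 on the HDL NP arrays, 237 to 246 on the human HDL arrays and 229 to 278 on the PBS arrays, and 33.9% to 38.1% of probes per array were above background. Of 11 B cell markers on the array, 10 were above background on all 9 arrays and PAX5 on none. Of 8 T cell markers, CD247 and CD2 were measured, 1 of them above background on all 9 arrays, and CD3E, CD3G and CD4 on none. Of 8 myeloid markers, CD14 and LYZ were measured, and ITGAM and S100A9 were above background on none. The summed level of the 2 measured T cell markers was 7.65 to 7.83 on the HDL NP arrays, 7.92 to 8.11 on the human HDL arrays and 7.95 to 8.0 on the PBS arrays, on the log2 scale. For the other marker lists the conditions overlapped. In the same order, the 10 B cell markers summed to 13.45 to 13.61, 13.42 to 13.46 and 13.38 to 13.51. The 2 myeloid markers summed to 5.72 to 5.98, 5.71 to 6.14 and 5.61 to 5.87. The part of these differences in the results below was not tested, and values from HDL NP replicates 2 and 3 alone, or from a fit without replicate 1, stand beside those of all 3 arrays for the classes and for most named genes.

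No splicing gene read from its brightest probe passed an adjusted p of 0.05 in limma after HDL NPs compared with PBS. Over all genes, 0.369% were called higher and 0.0388% lower in that comparison. At an unadjusted p under 0.05, 2 of the 56 genes were higher (HNRNPDL and HNRNPU, 3.57% against 9.07% of all genes) and 6 were lower (HNRNPA1, HNRNPCL3, SNRPB, SNRPC, U2AF1 and U2AF1L4, 10.7% against 6.35% of all genes). The study's rule, a fold over 1.5 with an unadjusted p under 0.05, took 0 of them in either direction, compared with 1.43% of all genes higher and 1.1% lower, and the methods' t-test with Benjamini-Hochberg adjustment called 0. A fall of RNA per cell and a fall in the number of cells that hold it cannot be told apart in such bulk samples. A call was made one level down, among single probes: 2 dimmer probes of HNRNPA2B1 rose on every HDL NP array while the brightest probe of that gene did not, as described after the hnRNP proteins.

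By their median log2 fold changes over all HDL NP arrays, the small snRNP genes lay below the PBS mean and the SR and hnRNP genes above it. On replicates 2 and 3 the small snRNP medians were below it, while the SR and hnRNP medians lay within 0.02 of it, as did those of all genes. All 11 small snRNP genes had a log2 fold change below 0 after HDL NPs, with a median of −0.21, whereas 27 of the 34 SR and hnRNP genes were above 0, with a median of 0.07. Over all genes the median was 0.03, and 56% were above 0. The contrast was widest on HDL NP replicate 1, where the small snRNP genes had a median of −0.57 and the SR and hnRNP genes 0.28. On that array the median was 0.11 for all genes, 0.48 for housekeeping genes and −0.46 for ribosomal protein genes, so such shifts were not particular to splicing genes. On HDL NP replicates 2 and 3 the small snRNP medians were −0.13 and −0.11, and those of the SR and hnRNP genes −0.02 and −0.01. With replicates 2 and 3 alone, 10 of the 11 small snRNP genes averaged below the PBS mean (90.9%, against 50.9% of all genes), but by 0.36 at most. The lowest of them, SNRPD1 (−0.36) and SNRPD3 (−0.2), were above the PBS mean on replicate 1, by 0.10 and 0.21. By the same mean, 16 of the 34 SR and hnRNP genes were above the PBS mean (47.1%, against 49.1% of all genes). Genes read on the same arrays are not replicates of each other.

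**Figure D1:**
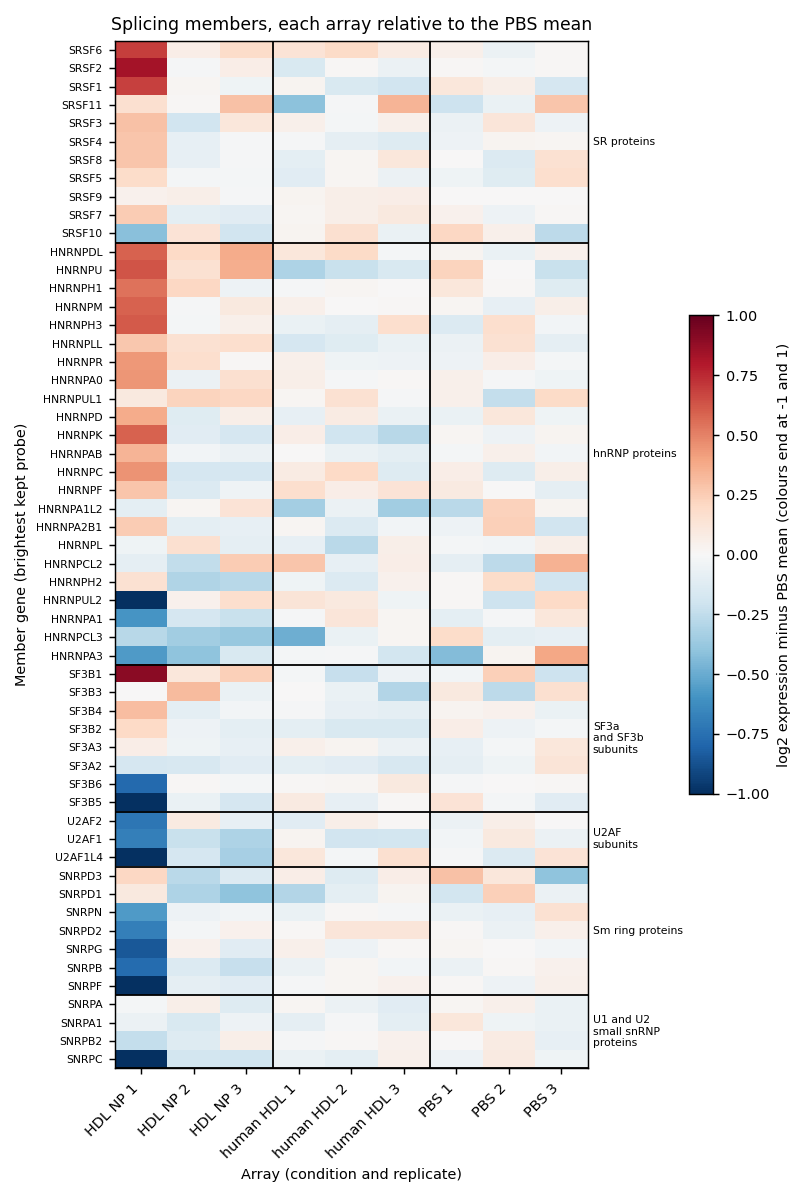
Log2 expression of the 56 measured splicing genes (rows, grouped by class and sorted by log2 fold change) on each of the 9 arrays (columns), minus the mean of the 3 PBS arrays; red is above and blue below that mean, and colours end at −1 and 1. The column of HDL NP replicate 1 holds the deepest colours in both directions, red for SRSF2 and SF3B1 and blue for SNRPF, SNRPC and U2AF1L4.

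SNRPC, the U1 snRNP protein that helps U1 hold the start of an intron, had the lowest log2 fold change of all 56 genes. Its log2 level was 9.07, 10.23 and 10.21 on the HDL NP arrays, 10.35, 10.31 and 10.47 on the human HDL arrays and 10.37, 10.50 and 10.37 on the PBS arrays. All HDL NP arrays were below all PBS arrays, replicate 1 by more than 1 unit and the other two by little. The log2 fold change against PBS was −0.57 (SE 0.25, limma unadjusted p = 0.037 and adjusted p = 0.30), or 1.49-fold lower, and −0.20 without HDL NP replicate 1. The exact two-sided permutation test gave p = 0.1, the smallest that 3 arrays against 3 allow. The second probe of SNRPC had −0.35.

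SNRPF, the F protein of the Sm ring, was at 10.97, 12.37 and 12.36 on the HDL NP arrays, at 12.45, 12.48 and 12.50 on the human HDL arrays and at 12.47, 12.41 and 12.51 on the PBS arrays. Replicate 1 of the HDL NP arrays was far below the rest, and replicates 2 and 3 lay only just under the lowest PBS array. The log2 fold change was −0.56 (SE 0.29, limma adjusted p = 0.36), its second probe had −0.60, and without HDL NP replicate 1 the value was −0.10. SNRPB, the B protein of the ring, was at 11.31, 11.94 and 11.85 after HDL NPs, at 12.02, 12.10 and 12.05 after human HDL and at 12.02, 12.10 and 12.12 after PBS. Here too no HDL NP array reached the lowest PBS array. Its log2 fold change was −0.38 (SE 0.15, limma adjusted p = 0.28), and −0.19 without HDL NP replicate 1; the second probe had −0.11.

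The other Sm ring genes had log2 fold changes of −0.30 (SNRPG), −0.22 (SNRPD2), −0.21 (SNRPD1), −0.21 (SNRPN) and −0.07 (SNRPD3). SNRPG, SNRPD2 and SNRPN were more than 0.5 below the PBS mean on HDL NP replicate 1 and within 0.11 of it on replicates 2 and 3. SNRPD1 went the other way between replicates: it was at 8.01 on HDL NP replicate 1, within the PBS range of 7.73 to 8.15, and at 7.6 and 7.51 on replicates 2 and 3, below that range. SNRPB2, a U2 snRNP protein, was at 10.57, 10.68 and 10.87 on the HDL NP arrays, at 10.81, 10.83 and 10.86 on the human HDL arrays and at 10.82, 10.89 and 10.74 on the PBS arrays, so that the groups overlapped. Its log2 fold change was −0.11 (limma adjusted p = 0.67) at the brightest probe and −0.59 at the other, which was at 7.84 on HDL NP replicate 1 and between 9.19 and 9.54 on the other 8 arrays. SNRPN is nearly identical to SNRPB, so that probes of either may bind both. SNRPA1, the partner of SNRPB2 on the U2 snRNP, and SNRPA of the U1 snRNP had −0.08 and −0.03.

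Promoters are shown for SNRPC, SNRPF and SNRPB, the small snRNP genes with the lowest values, with that of U2AF1 beside them. Each line gives the 250 bases before the transcription start in RefSeq (GRCh38.p14), 5′ to 3′ on the strand of the gene. Capitals mark matches, on either strand, to CCGGAAG, which is a core bound by ETS factors, to CCAAT, which NF-Y binds, to GGGCGG, which Sp1 binds, to the E box motif CACGTG, or to the TATA box motif TATAAA. The matches on opposite strands overlap in SNRPC.
SNRPC, chr6:34757255-34757504, plus strand: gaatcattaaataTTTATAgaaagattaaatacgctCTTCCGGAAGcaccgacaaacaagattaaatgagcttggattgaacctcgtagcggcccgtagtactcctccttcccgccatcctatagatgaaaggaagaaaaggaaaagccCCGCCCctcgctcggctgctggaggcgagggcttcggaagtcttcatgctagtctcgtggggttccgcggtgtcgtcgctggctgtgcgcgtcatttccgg
SNRPF, chr12:95858702-95858951, plus strand: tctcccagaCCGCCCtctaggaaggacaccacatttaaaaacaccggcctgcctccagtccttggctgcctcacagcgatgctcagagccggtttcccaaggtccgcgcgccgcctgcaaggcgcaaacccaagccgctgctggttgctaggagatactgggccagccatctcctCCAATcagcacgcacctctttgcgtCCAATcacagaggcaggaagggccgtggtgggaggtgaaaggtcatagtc
SNRPB, chr20:2470790-2471039, minus strand: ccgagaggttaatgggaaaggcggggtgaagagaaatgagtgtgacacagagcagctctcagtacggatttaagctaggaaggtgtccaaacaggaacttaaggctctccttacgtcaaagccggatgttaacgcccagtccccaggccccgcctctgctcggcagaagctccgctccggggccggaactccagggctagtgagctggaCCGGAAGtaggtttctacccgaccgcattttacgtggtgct
U2AF1, chr21:43107571-43107820, minus strand: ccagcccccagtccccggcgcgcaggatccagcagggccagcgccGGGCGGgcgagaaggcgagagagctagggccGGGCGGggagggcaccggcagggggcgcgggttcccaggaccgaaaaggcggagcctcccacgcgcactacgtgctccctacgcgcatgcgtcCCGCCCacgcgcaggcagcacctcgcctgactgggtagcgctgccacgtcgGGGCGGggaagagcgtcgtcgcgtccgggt

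SNRPB holds CCGGAAG, and SNRPC holds it on both strands, beside GGGCGG and TATAAA on the opposite strand. SNRPF holds CCAAT at 2 places and GGGCGG on the opposite strand, and U2AF1 holds GGGCGG at 4 places over both strands. RefSeq promoters were matched for 51 of the 56 genes, 15 of them with several starts, which gave 74 promoters. CCGGAAG was found in 44.4% of 18 promoters of 10 small snRNP genes and in 11.1% of 45 promoters of 31 SR and hnRNP genes, against 8.52% of all 35116 promoters. The latter belong to 27305 genes and so include genes not measured here, whereas all splicing genes were measured. CCGGAAG was also in 54.5% of the 11 promoters of SF3 and U2AF subunits. CCAAT was found in 27.8% of the small snRNP promoters and 48.9% of the SR and hnRNP promoters, against 32% of all, and GGGCGG in 27.8% and 57.8%, against 42.6% of all. CACGTG was found in 0% and 15.6% of them, against 6.34% of all, and TATAAA in 5.56% and 13.3%, against 10.7%. These are matches of letters, with starts of 1 gene often overlapping, and binding was not measured. Whether any motif bears on the levels was not tested.

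**Figure D2:**
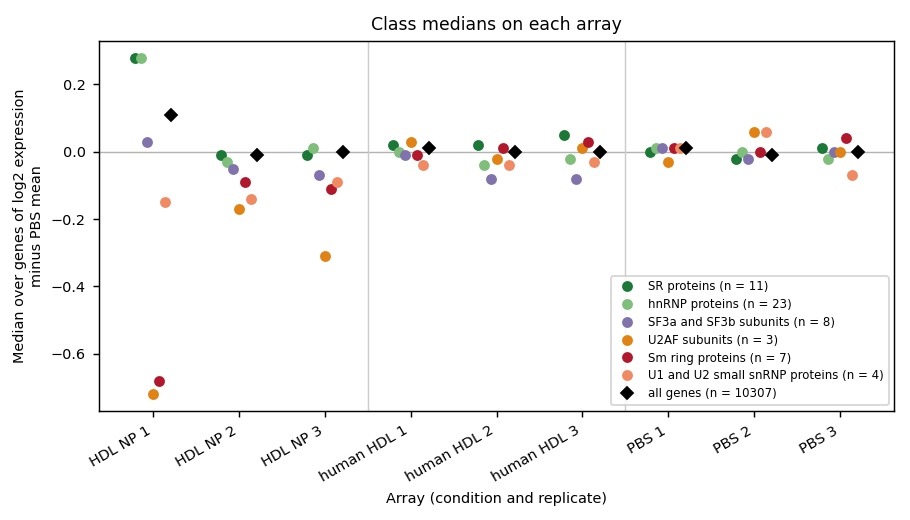
Median over the genes of each class of log2 expression minus the PBS mean (y axis), on each of the 9 arrays (x axis); diamonds show the median of all 10307 genes. On HDL NP replicate 1 the SR and hnRNP medians stand at 0.28 and those of the Sm ring and U2AF genes at −0.68 and −0.72, while on the other HDL NP arrays the U2AF genes have −0.17 and −0.31 and no other class median is below −0.14.

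U2AF, the pair of proteins that reads the end of the intron, was the other class with every gene below 0. The median of the 3 genes was −0.40, and they had −0.72, −0.17 and −0.31 as medians on the HDL NP arrays. U2AF1, the small subunit, which contacts the AG at the end of the intron, was at 9.83, 10.30 and 10.20 on the HDL NP arrays, at 10.55, 10.33 and 10.34 on the human HDL arrays and at 10.48, 10.61 and 10.45 on the PBS arrays. All 3 HDL NP arrays were below every array of the other two conditions. Against PBS it was at −0.40 on the log2 scale (SE 0.14, limma unadjusted p = 0.013 and adjusted p = 0.23), or 1.32-fold lower, and −0.28 without HDL NP replicate 1. The second probe of U2AF1 had −0.43. A near-identical copy, U2AF1L5, may share these probes.

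U2AF1L4, a relative of the small subunit, was at 6.35, 7.24 and 7.08 on the HDL NP arrays, at 7.52, 7.39 and 7.56 on the human HDL arrays and at 7.40, 7.27 and 7.55 on the PBS arrays. The HDL NP arrays were again below all others, replicate 2 by very little. The log2 fold change was −0.52 (SE 0.20, limma unadjusted p = 0.021 and adjusted p = 0.26) against PBS and −0.25 without HDL NP replicate 1, and its second probe had −0.32. U2AF2, the large subunit, which binds the polypyrimidine tract, was at 9.61, 10.43 and 10.26 on the HDL NP arrays and at 10.28, 10.40 and 10.34 on the PBS arrays, and only replicate 1 was clearly low (log2 fold change −0.24, limma adjusted p = 0.53; 0.01 for the mean of replicates 2 and 3).

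The SF3a and SF3b subunits, which hold the U2 snRNP on the branch point, had no common direction: 4 of 8 were above 0 and the median was 0.00. SF3B1, the large scaffold of SF3b that contacts the branch site, was at 10.65, 9.87 and 10.00 on the HDL NP arrays, at 9.74, 9.53 and 9.71 on the human HDL arrays and at 9.73, 10.00 and 9.55 on the PBS arrays. It was high on HDL NP replicate 1 and within the PBS range on the other two. Its log2 fold change was 0.42 (SE 0.19, limma adjusted p = 0.33) and 0.18 without HDL NP replicate 1, and a second, dimmer probe had −0.31. SF3B3, another scaffold subunit, was at 7.98, 8.31 and 7.91 after HDL NPs, at 7.99, 7.91 and 7.70 after human HDL and at 8.09, 7.72 and 8.15 after PBS, with overlapping groups and a log2 fold change of 0.08 (limma adjusted p = 0.82).

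The smallest subunits of SF3b had the lowest values of this class. SF3B5 was at 8.22, 9.34 and 9.24 on the HDL NP arrays, at 9.50, 9.33 and 9.42 on the human HDL arrays and at 9.55, 9.39 and 9.30 on the PBS arrays (log2 fold change −0.48, standard error 0.23, limma adjusted p = 0.35; −0.13 without HDL NP replicate 1), and of the HDL NP arrays only replicate 2 lay within the PBS range. SF3B6, which sits at the branch point adenosine, was at 10.05, 10.84 and 10.81 on the HDL NP arrays, at 10.84, 10.85 and 10.93 on the human HDL arrays and at 10.82, 10.83 and 10.84 on the PBS arrays. Its log2 fold change of −0.26 (limma adjusted p = 0.50) came to 0.00 without HDL NP replicate 1. The remaining subunits had −0.15 (SF3A2), −0.02 (SF3A3), 0.02 (SF3B2) and 0.06 (SF3B4).

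**Figure D3:**
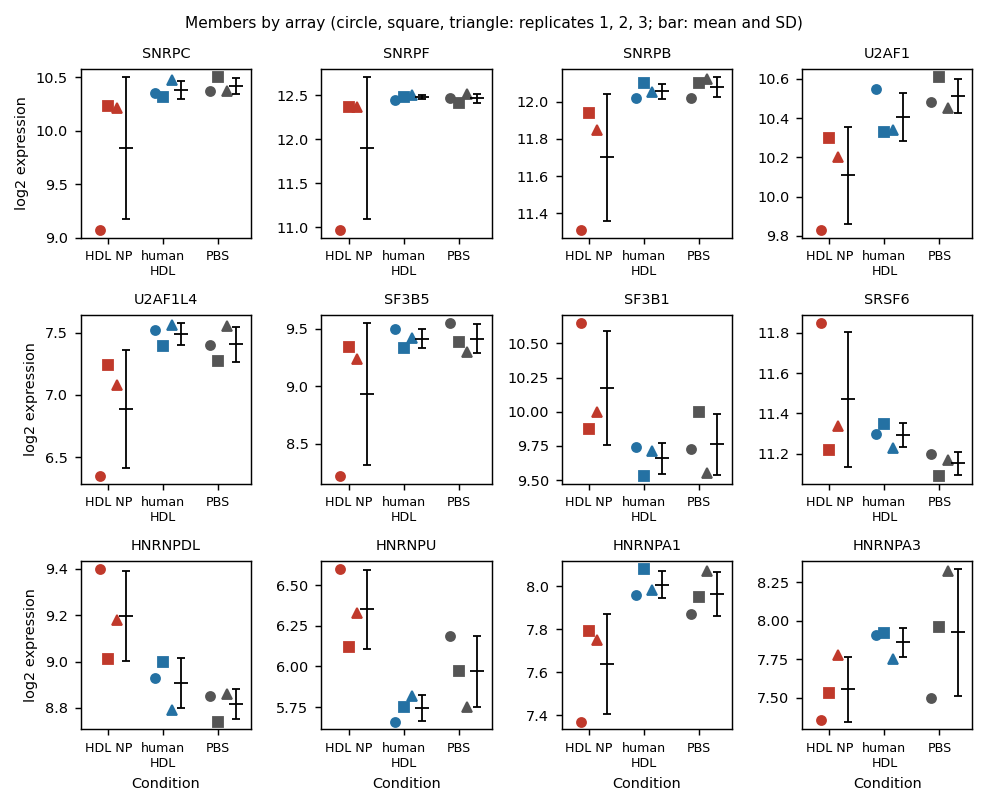
Log2 expression of 12 splicing genes on the HDL NP, human HDL and PBS arrays; circles, squares and triangles are replicates 1, 2 and 3, the bar is the mean with its SD (n = 3), and each panel has its own y axis. In SNRPC, SNRPF and SF3B5 the circle of HDL NP replicate 1 lies far under all other points, and in SF3B1 and SRSF6 far above them.

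Of the 11 SR genes, 10 had a log2 fold change above 0, with a median of 0.07. On HDL NP replicate 1 the median was 0.28 and on the other two −0.01 each. SRSF6, which favours exon inclusion, was at 11.85, 11.22 and 11.34 on the HDL NP arrays, at 11.30, 11.35 and 11.23 on the human HDL arrays and at 11.20, 11.09 and 11.17 on the PBS arrays. Both HDL NP and human HDL arrays were above every PBS array, though HDL NP replicate 2 by only 0.02. The difference was 0.32 after HDL NPs (SE 0.15, limma adjusted p = 0.34), 0.13 without HDL NP replicate 1, and 0.14 after human HDL.

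SRSF2, a splicing activator that stays in the nucleus, was at 12.36, 11.52 and 11.60 on the HDL NP arrays, at 11.38, 11.53 and 11.47 on the human HDL arrays and at 11.54, 11.50 and 11.54 on the PBS arrays. The value of 0.30 (SE 0.19, limma adjusted p = 0.45) rested on HDL NP replicate 1 and was 0.03 without it. SRSF10, which represses splicing when it is dephosphorylated, was the 1 SR gene below 0 (−0.16, limma adjusted p = 0.65). It was at 6.45, 7.0 and 6.67 after HDL NPs, at 6.90, 7.02 and 6.79 after human HDL and at 7.08, 6.91 and 6.61 after PBS, and its second probe had 0.20. The other 8 SR genes had log2 fold changes of 0.01 (SRSF7) to 0.22 (SRSF1), and the means of replicates 2 and 3 were −0.11 for SRSF7 and −0.01 for SRSF1.

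Of the 23 hnRNP genes, 17 were above 0, with a median of 0.08. The medians on HDL NP replicates 1, 2 and 3 were 0.28, −0.03 and 0.01, and by the mean of replicates 2 and 3 alone 12 of the 23 were above 0, with a median of 0.02. HNRNPDL, a relative of the AU-rich element binding protein HNRNPD, had the highest log2 fold change of the class. It was at 9.40, 9.01 and 9.18 on the HDL NP arrays, at 8.93, 9.0 and 8.79 on the human HDL arrays and at 8.85, 8.74 and 8.86 on the PBS arrays. All HDL NP arrays were above all others, replicate 2 only just above the highest human HDL array. The difference from PBS was 0.39 (SE 0.13, limma unadjusted p = 0.011 and adjusted p = 0.22), or 1.31-fold higher, and 0.29 without HDL NP replicate 1. With weights for array quality the value was 0.35 and passed the threshold (limma adjusted p = 0.038). The share of all genes called with these weights is not given here. Its dimmer probe, however, had 0.01.

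HNRNPU, a nuclear scaffold protein, was at 6.60, 6.12 and 6.33 on the HDL NP arrays, at 5.66, 5.75 and 5.82 on the human HDL arrays and at 6.19, 5.97 and 5.75 on the PBS arrays. The HDL NP arrays were all above the human HDL arrays and overlapped the PBS arrays. Against PBS the log2 difference was 0.38 (SE 0.15, limma adjusted p = 0.28), and the second probe, with nearly the same mean intensity, had −0.19. HNRNPA3, a relative of HNRNPA1, was at 7.36, 7.53 and 7.78 after HDL NPs, at 7.91, 7.92 and 7.75 after human HDL and at 7.50, 7.96 and 8.32 after PBS, a spread between PBS arrays wider than the difference (−0.37, limma adjusted p = 0.36).

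HNRNPA1, which represses exons by binding UAG motifs, was at 7.37, 7.79 and 7.75 on the HDL NP arrays, at 7.96, 8.08 and 7.98 on the human HDL arrays and at 7.87, 7.95 and 8.07 on the PBS arrays. It was lower on each HDL NP array than on any other array (log2 fold change −0.33, limma unadjusted p = 0.031 and adjusted p = 0.29), and its second probe had −0.30. HNRNPCL3, a gene similar to HNRNPC whose probe may also bind HNRNPC transcripts, was at 5.68, 5.61 and 5.59 after HDL NPs, at 5.47, 5.89 and 5.99 after human HDL and at 6.15, 5.86 and 5.89 after PBS (−0.34, limma adjusted p = 0.31). HNRNPC itself had 0.04. The remaining hnRNP genes lay between −0.28 (HNRNPUL2) and 0.23 (HNRNPM and HNRNPH1). Both ends rested on HDL NP replicate 1: the means of replicates 2 and 3 were 0.10 for HNRNPUL2, 0.04 for HNRNPM and 0.08 for HNRNPH1. HNRNPLL, which was above background on 3 HDL NP arrays, 1 human HDL array and 3 PBS arrays, was at 4.96, 4.84 and 4.85 after HDL NPs, at 4.51, 4.57 and 4.61 after human HDL and at 4.63, 4.83 and 4.59 after PBS.

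HNRNPA2B1, which encodes the abundant hnRNP A2 and B1 proteins, held the 2 probes that rose. It had 4 kept probes, numbered here by falling brightness, and it was singled out after its values had been seen. The brightest, used above, was at 12.58, 12.23 and 12.26 on the HDL NP arrays, at 12.35, 12.19 and 12.30 on the human HDL arrays and at 12.28, 12.57 and 12.14 on the PBS arrays. The groups overlapped and the log2 fold change against PBS was 0.02 (95% interval −0.29 to 0.34, limma adjusted p = 0.95).

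Probe 3 was at 8.63, 8.02 and 8.13 on the HDL NP arrays, at 6.87, 7.30 and 6.94 on the human HDL arrays and at 6.94, 6.80 and 6.69 on the PBS arrays. Every HDL NP array was above every other array by more than 0.5, replicates 2 and 3 included. It rose by 1.45 against PBS (SE 0.17, limma adjusted p = 0.0044 over 13619 kept probes), or 2.73-fold, and by 1.22 against human HDL (limma adjusted p = 0.015). Probe 4 was at 8.52, 7.85 and 7.84 on the HDL NP arrays, at 6.88, 6.97 and 6.80 on the human HDL arrays and at 6.88, 6.70 and 6.49 on the PBS arrays, and followed the same pattern. It rose by 1.38 (SE 0.18, limma adjusted p = 0.0080), or 2.6-fold, and by 1.19 against human HDL (limma adjusted p = 0.019). Without HDL NP replicate 1 these values were 1.27 and 1.16 (adjusted p = 0.0033 for both, limma). Without PBS replicate 2 both missed the threshold (1.44 with adjusted p = 0.052 and 1.38 with adjusted p = 0.071), as did probe 4 without PBS replicate 3 (1.28, adjusted p = 0.088).

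Probe 2 lay between these. It was at 9.75, 9.46 and 9.52 on the HDL NP arrays, at 8.80, 9.16 and 9.19 on the human HDL arrays and at 8.63, 9.06 and 8.85 on the PBS arrays, with all HDL NP arrays the highest. Its log2 fold change was 0.73 against PBS (SE 0.15, limma unadjusted p = 0.00044 and adjusted p = 0.085) and 0.52 against human HDL (limma adjusted p = 0.17). After human HDL the 4 probes had log2 fold changes of −0.05, 0.21, 0.23 and 0.19 against PBS, none of them called. In the array's annotation probe 3 stands for a cDNA record and the others for RefSeq transcripts, and where each probe lies on the gene was not determined here. The promoter of HNRNPA2B1, the 250 bases before its start, holds 1 match to the same motifs, CCAAT on the opposite strand.
HNRNPA2B1, chr7:26200747-26200996, minus strand: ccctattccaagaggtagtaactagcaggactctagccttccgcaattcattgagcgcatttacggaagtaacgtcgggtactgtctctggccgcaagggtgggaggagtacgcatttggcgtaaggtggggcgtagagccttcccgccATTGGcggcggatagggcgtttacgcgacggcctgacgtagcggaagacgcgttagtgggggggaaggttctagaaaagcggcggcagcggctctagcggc

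**Figure D4:**
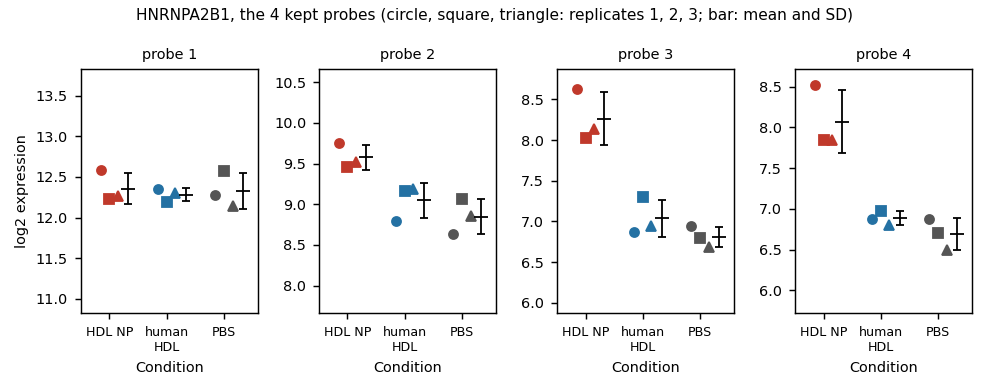
Log2 expression at the 4 kept probes of HNRNPA2B1, numbered by falling brightness, on the HDL NP, human HDL and PBS arrays; circles, squares and triangles are replicates 1, 2 and 3, the bar is the mean with its SD (n = 3), and every panel spans 3 log2 units. Probe 1 overlaps between conditions, while at probes 3 and 4 all HDL NP arrays lie between 7.84 and 8.63 and all other arrays between 6.49 and 7.30.

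Other genes seldom showed such a split between probes. Of all kept probes, 0.169% were called higher and 0.0294% lower after HDL NPs against PBS, and 0.389% higher and 0.0367% lower against human HDL. Among the 96 kept probes of splicing genes 2 were called higher and 0 lower against PBS. Of the 2647 genes with several kept probes, 2 (0.0756%) had a called dimmer probe beside an uncalled brightest one, HNRNPA2B1 and ARPP21. A spread of over 1 between the log2 fold changes of the probes of a gene was found in 0.302% of these genes. Among the 29 splicing genes with several probes, 3 had a spread over 0.5 (HNRNPA2B1 with 1.43, SF3B1 with 0.73 and HNRNPU with 0.57), against 6.99% of all genes. In 10 of the 29 the probes differed in sign, against 39.9% of all genes. All 6 small snRNP genes with several probes, and the 3 U2AF genes, were below 0 at every probe.

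Across the replicates of HDL NP treatment, most splicing genes deviated most on replicate 1. This array was farther from the PBS mean than both others for 42 of the 56 genes (75%, against 58.3% of all genes). On it, 26 splicing genes were above every PBS array (46.4%, against 46.7% of all) and 19 below (33.9%, against 27.1%). At least 0.5 below the PBS mean stood 14 genes (25%, against 10.7% of all), among them 6 of the 11 small snRNP genes and all 3 U2AF genes, and at least 0.5 above stood 10 (17.9%, against 13.8%). On replicates 2 and 3, 0 of the 56 deviated by 0.5, compared with 2.43% of all genes above and 1.24% below on replicate 2, and 3.05% above and 1.29% below on replicate 3. The direction on replicate 1 matched the mean of replicates 2 and 3 for 32 of the 56 genes (57.1%, against 64.6% of all).

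**Figure D5:**
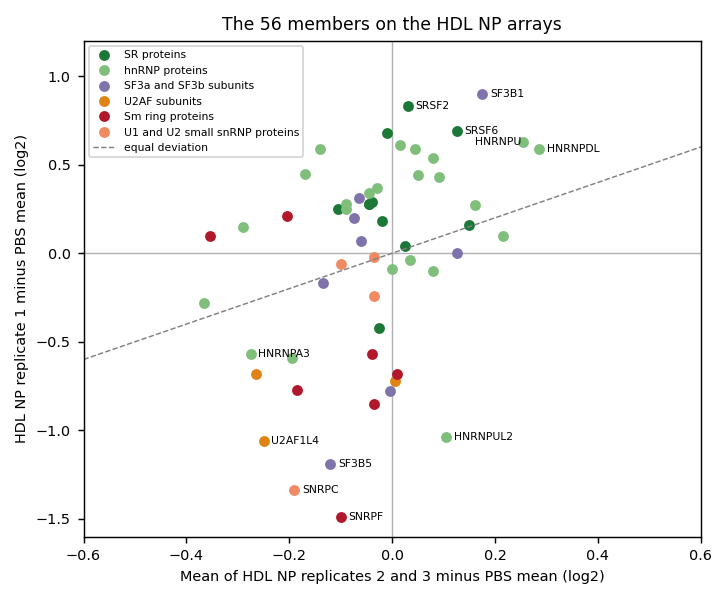
Each point is 1 of the 56 splicing genes, with the mean of HDL NP replicates 2 and 3 minus the PBS mean on the x axis and HDL NP replicate 1 minus the PBS mean on the y axis (both log2); the dashed line marks equal deviation. The points spread from −1.49 to 0.90 along the y axis and from −0.37 to 0.28 along the x axis.

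Replicates 2 and 3 were both below every PBS array for 14 of 56 genes (25%, against 16% of all genes): the snRNP genes SNRPB, SNRPC, SNRPD1 and SNRPF, U2AF1 and U2AF1L4, the hnRNP genes HNRNPA1, HNRNPC, HNRNPCL3, HNRNPH2 and HNRNPK, the SF3 genes SF3A2 and SF3B2, and SRSF7. Not all of these were low on replicate 1. There HNRNPC, HNRNPK, SF3B2 and SRSF7 were above every PBS array, at 9.65, 11.09, 9.74 and 9.42. HNRNPH2 and SNRPD1 were above the PBS mean on it, by 0.15 and 0.10. Some margins were small: SRSF7 was at 9.07 and 9.06 on replicates 2 and 3, and its lowest PBS array at 9.12. HNRNPDL, HNRNPLL, HNRNPUL1 and SRSF6 were above every PBS array on both (7.14%, against 15% of all genes). With all replicates, 8 genes had HDL NP arrays entirely below the PBS arrays (14.3%, against 8.5% of all): HNRNPA1, HNRNPCL3, SF3A2, SNRPB, SNRPC, SNRPF, U2AF1 and U2AF1L4. HNRNPDL, HNRNPLL and SRSF6 lay entirely above (5.36%, against 11.7%).

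After human HDL the differences from PBS were small. In limma 0 of the 56 passed an adjusted p of 0.05, as did 0% of all genes, and 0 had an unadjusted p under 0.05, compared with 1.14% of all genes higher and 1.16% lower. Log2 fold changes ran from −0.25 (HNRNPA1L2) to 0.14 (SRSF6), and the small snRNP genes had a median of −0.02 with 5 of 11 above 0 (51.8% of all genes). The fold rule of the study took 0, with 0.0388% of all genes lower. SRSF6 and SRSF9 were entirely above the PBS arrays (3.57%, against 4.92% of all genes), and SF3A2 and SF3B2 entirely below (3.57%, against 4.26%).

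Between HDL NPs and human HDL, which share the receptor, limma again called 0 of the 56 genes, with 0.553% of all genes higher and 0.0388% lower. At an unadjusted p under 0.05, 4 were higher (HNRNPDL, HNRNPLL, HNRNPU and SF3B1, 7.14%, against 9.56% of all genes) and 4 lower (HNRNPA1, SNRPB, SNRPC and U2AF1L4, 7.14%, against 6.81%). By the study's rule HNRNPU was higher (log2 fold change 0.61, limma adjusted p = 0.10) and U2AF1L4 lower (−0.60, limma adjusted p = 0.19), against 1.63% and 1.35% of all genes. Neither met that rule without HDL NP replicate 1, with array weights, without background correction or with an offset of 50. On adjusted p alone, with array weights HNRNPU (0.57, limma adjusted p = 0.0077), HNRNPLL (0.29, limma adjusted p = 0.050) and U2AF1L4 (−0.41, limma adjusted p = 0.028) passed the threshold. The share of all genes called with array weights is not given here, so these calls have no background beside them. The HNRNPLL probe lay near background and was above it on 1 of the 3 human HDL arrays. HNRNPDL, HNRNPLL, HNRNPU, SF3B1 and SF3B2 lay entirely above the human HDL arrays (8.93%, against 12.5% of all), and HNRNPA1, SNRPB, SNRPC, SNRPF, U2AF1 and U2AF1L4 entirely below (10.7%, against 10.1%). The small snRNP genes had a median of −0.19, and 1 of 11 was above 0 (SNRPA, 0.02), against 55% of all genes. This comparison shares its HDL NP arrays with the first one, and the comparisons with PBS share the PBS arrays.

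The rest of the splicing machinery and genes related to it were read from lists, and none of the listed genes was called against PBS in limma. The 10 genes of the Lsm family, relatives of the Sm genes, had a median log2 fold change of −0.23 after HDL NPs, with a median of −0.60 on HDL NP replicate 1 and 0.03 and −0.06 on the other two. They ran from 0.31 (LSM11) to −0.62 (LSM7), and the means of replicates 2 and 3 were 0.24 for LSM11 and −0.04 for LSM7. LSM11 was dim, at 4.43 to 4.97 over the arrays, a level like that of HNRNPLL. The 20 measured genes of snRNP assembly and import had a median of 0.04, and of −0.04 on replicates 2 and 3. Among them COPRS, a cofactor of the methyltransferase PRMT5, was lowest, at 7.62, 8.6 and 8.57 after HDL NPs, at 8.99, 8.89 and 8.89 after human HDL and at 9.02, 8.91 and 8.77 after PBS (−0.63, limma adjusted p = 0.23). Its mean over replicates 2 and 3 was −0.31. The assembly factor STRAP was highest, at 0.36, and 0.08 on replicates 2 and 3. The 16 U5 and tri-snRNP proteins had a median of −0.01, from 0.24 (PRPF8, 0.16 on replicates 2 and 3) to −0.45 (PPIH, −0.18 on replicates 2 and 3).

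The 22 other proteins of the U1, U2 and minor U11/U12 snRNPs had a median of 0.01. Their highest, PDCD7 of the minor spliceosome, was at 12.68, 12.07 and 12.28 on the HDL NP arrays, at 11.51, 11.56 and 11.63 on the human HDL arrays and at 11.73, 11.73 and 11.57 on the PBS arrays. All HDL NP arrays were the highest, with a log2 fold change of 0.66 against PBS (limma adjusted p = 0.078) and 0.78 against human HDL, the 1 call in these lists in that comparison (limma adjusted p = 0.043). On replicates 2 and 3 the mean difference from PBS was 0.49. The lowest was ZMAT5, at −0.43, and −0.20 on replicates 2 and 3. The 22 proteins of the Prp19 complex and the catalytic step had a median of 0.03, from 0.36 (DHX38) to −0.22 (CWC15), with 0.26 and −0.05 for these genes on replicates 2 and 3. The 8 of the exon junction complex had a median of 0.01, from 0.38 (PNN) to −0.68 (MAGOH), with 0.13 and −0.22 on replicates 2 and 3.

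The 8 kinases and import factors of SR proteins had a median of 0.21, with 0.55 on HDL NP replicate 1 and −0.06 and 0.00 on the other two. CLK1, a kinase of SR proteins, was highest (0.30, and 0.18 on replicates 2 and 3) and SRPK2 lowest (−0.20, and −0.19). The 34 other splicing regulators had a median of 0.17, with 0.37 on HDL NP replicate 1 and −0.02 and 0.01 on the other two. TARDBP, which encodes TDP-43 and whose protein lowers its own RNA, was at 7.01, 6.42 and 6.29 on the HDL NP arrays, at 5.99, 6.01 and 6.08 on the human HDL arrays and at 5.73, 5.85 and 5.69 on the PBS arrays. The 3 conditions did not overlap, and the log2 fold change was 0.82 after HDL NPs (SE 0.17, limma unadjusted p = 0.00034 and adjusted p = 0.064) and 0.27 after human HDL. On HDL NP replicates 2 and 3 alone the mean difference was 0.60. RBM39, a U2AF-related splicing factor, was at 6.62, 6.87 and 6.87 after HDL NPs, at 7.65, 7.01 and 6.98 after human HDL and at 7.66, 7.33 and 7.20 after PBS (−0.61, limma adjusted p = 0.17; −0.52 on HDL NP replicates 2 and 3).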

How the data were processed

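RNA from 9 cultures of Ramos cells, 3 each after HDL NPs, human HDL or PBS, had been hybridized to Illumina HT-12 arrays. For each array the deposited table gives, over 47323 probes, the intensity averaged over beads with its detection p-value, neither of them changed by the authors through background subtraction or normalization. A second deposited table holds a signal of unstated unit and scale and was used only as an alternative. The array software is not given in the sources used here.

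The neqc function of limma 3.58.1 (R 4.3.3, offset 16, quantile normalization) gave log2 expression for 18185 probes above background on at least 3 arrays. Probe symbols came from the platform's annotation, of which 30113 probes carried 1 symbol, 8 several and 17202 none; 30074 matched the RefSeq gene table by gene ID, and 6 pseudogene probes were left out. The brightest probe stood for each gene. All 9 arrays were fitted with condition as the only term, and p-values were adjusted by Benjamini-Hochberg over 10307 genes, or over 13619 named kept probes for single probes. Standard errors share 1 estimate of the spread across conditions, although HDL NP arrays lay 0.131 to 0.22 from their condition's mean on average and the others 0.0982 to 0.108. Precision is limited by how few arrays there are. The methods call the arrays biological replicates of 1 cell line. The fit was tested on simulated data, with noise independent between arrays and of equal spread across conditions. No simulated array stood apart as HDL NP replicate 1 does, so that setting was not tested.

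Genes with per-array values have the up to 2 largest positive and 2 largest negative log2 fold changes of each class, whatever their p, and 1 of each for the other lists. U2AF2, SNRPD1, HNRNPA1, HNRNPLL and the HNRNPA2B1 probes were added with their values in view. Alternatives were array weights, median scaling, no background correction, an offset of 50, the mean of kept probes, the second table, a t-test, the replicate block and leaving out each array. The members and lists were chosen with earlier results of these data known. Promoters were searched with Python 3.11.15 and plots drawn with matplotlib 3.10.9.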

Additional observations from a re-analysis of the deposited data

How the results depend on the processing

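Over the alternatives tried, 0 splicing genes were called lower after HDL NPs against PBS and 0 in either direction after human HDL. Against PBS, 1 was called higher with array weights (HNRNPDL) and 1 with the mean of the kept probes (HNRNPA2B1, 0.90, adjusted p = 0.035 from limma); against human HDL, 2 were called higher and 1 lower with array weights, and 1 higher with the mean of the kept probes (HNRNPA2B1, 0.75). By the study's rule, HDL NPs against PBS gave 1 gene higher with the mean of the kept probes or the second table, and 1 lower with median scaling and 4 with the second table, with 0 to 4 lower when an array was left out, 4 of them without HDL NP replicate 2 or without HDL NP replicate 3. Against human HDL, the 1 higher gene was lost (0) with array weights, no background correction or an offset of 50, and the 1 lower gene (0) with these, the mean of the kept probes, median scaling or a t-test. Leaving out an array gave 0 to 2 higher (2 without HDL NP replicate 3) and 0 to 4 lower (4 without HDL NP replicate 2 or 3); the 1 higher gene was lost without HDL NP replicate 1 or human HDL replicate 1 and the 1 lower gene without HDL NP replicate 1 or human HDL replicate 3. The shares of all genes called under these alternatives are not given here. Whether the counts of splicing genes exceed such shares was therefore not tested, and neither was the cause.

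Without HDL NP replicate 1 the median of the Sm ring genes was −0.10, against −0.22 with it, that of the hnRNP genes 0.00, against 0.08, that of the SR genes −0.02, against 0.07, and that of the U2AF genes −0.25, against −0.40. The SR median was 0.00 with array weights and 0.26 in the second table, and the U2AF median was −0.31 with array weights and −0.10 in the second table. The SF3 median was −0.06 with median scaling and 0.08 in the second table (−0.06 to 0.04 with an array left out). The median of the small U1 and U2 proteins was −0.22 with the mean of the kept probes, −0.20 with median scaling and −0.27 in the second table (−0.15 to −0.07 with an array left out). The direction turned for HNRNPU without HDL NP replicate 1 (−0.17) or 2 (−0.11), within −0.17 to 0.49 over arrays left out, where the other probe became the brightest, for SF3B3 with array weights (−0.04) or without HDL NP replicate 2 (−0.04) or PBS replicate 2 (−0.05), within −0.05 to 0.16 over arrays left out, for SF3B6 in the second table (0.09), for SNRPB2 with array weights (0.03) and for SRSF10 with the mean of the kept probes (0.02).

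For HNRNPA2B1, the alternatives were chosen after the values were seen. Probes 3 and 4 kept their direction throughout, at 0.97 to 1.57 and 0.71 to 1.5, and missed the threshold with median scaling (adjusted p = 0.092 and 0.16) and the second table (adjusted p = 0.43 and 0.61); probe 2 passed it with array weights (adjusted p = 0.0041) and an offset of 50 (adjusted p = 0.048), all from limma. Same-numbered arrays had correlations of −0.08 to 0.17 in their deviations from the group means, and other pairs −0.14 to 0.09. Not every same-numbered pair was above 0.1, so the numbers were not taken as pairs, although a weak pairing is possible. The replicate number as a block called 0 of the 56 genes in every comparison, left the class medians at −0.22 for the Sm ring and −0.40 for U2AF, and gave adjusted p = 0.0099 and 0.0074 for probes 3 and 4; it changed no call. Dim probes such as those of HNRNPCL2 and HNRNPLL lie near background, where small changes were not detectable.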
